A study of Homo sapiens with 12 samples.

Results

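The stretches of chromatin described here were recovered by control probes and by a single set of probes against the long non-coding RNA SLEAR. They come from ChIRP-seq, in which chromatin is pulled down through an RNA and its DNA sequenced. The cells were Jurkat, a human cell line from a T-cell leukaemia, and all of them stably expressed SLEAR. Odd and even probes tile SLEAR in turn and lacZ probes are the control, with 3 libraries each, and 3 input libraries were not analysed here. Joining every pair of peaks of the 9 lists with 1 base or more in common gave 357901 regions on chromosomes 1 to 22 and X. A lacZ-even region was required to hold peaks from 5 or 6 of the 6 even and lacZ lists and none from the odd lists. A lacZ-odd region was required to hold peaks from 5 or 6 of the 6 odd and lacZ lists and none from the even lists. These rules gave 1571 lacZ-even regions, 0.439% of all regions, and 1494 lacZ-odd regions, 0.417%, or 3065 in all. The rule with odd and even lists and no lacZ peak, the pattern that the design looks for, gave 4042 odd-even regions, 1.13%. The lacZ lists were shorter, with a mean of 54781 peaks against 103213 in the even and 96762 in the odd lists. The part of list length in the gap between these counts was not tested. The members were chosen by whether each list had a peak there, so the counts, and the strength of the member peaks, are descriptions without a test.

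In ChIRP, biotinylated oligonucleotides pair with an RNA in crosslinked chromatin, and the DNA bound to that RNA comes down with it. Oligonucleotides can also capture DNA or other RNAs that resemble their targets, and some chromatin sticks to the beads. The probes are therefore split into pools with no oligonucleotide in common, so that a site of the RNA should appear with either pool. The lacZ messenger RNA of Escherichia coli is absent from human cells, and a site found with lacZ probes is taken as background of the method. All libraries came from a single cell line grown in medium with serum and no treatment named, and no cells without SLEAR were among the samples. Peak positions hold no expression values, so the cell type could not be checked against its markers. The labels do not say whether the replicates were separate cultures, so each p-value refers to the spread among these libraries, which may be technical.

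The 3 even lists held 90519 to 124668 peaks, the 3 odd lists 66520 to 117481 and the 3 lacZ lists 26540 to 91111. Reads per library were not given, so no interval for the sampling of reads could be computed. Replicate 3 of lacZ was the shortest list and the one most often without a peak at a member. Of the lacZ-even regions, 740 (47.1%) held peaks of all 6 lists and 831 of 5. In 555 of those 831 the list without a peak was lacZ replicate 3, in 98, 105 and 26 it was even replicate 1, 2 or 3, in 44 lacZ replicate 1 and in 3 lacZ replicate 2. Of the lacZ-odd regions, 634 (42.4%) held peaks of all 6 lists and 860 of 5. There the missing list was lacZ replicate 3 in 491 regions, odd replicate 1, the shortest odd list, in 261, and odd replicate 2 or 3 in 32 and 24. Without lacZ replicate 3, and with 4 of the 5 lists left required, the counts were 2876 and 2594. Without lacZ replicate 1 they were 2640 and 2354.

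Just outside the threshold, 1724 regions held peaks from 4 of the 6 even and lacZ lists without an odd peak, and 1530 held peaks from 4 of the 6 odd and lacZ lists without an even peak. Their median lengths were 742.5 and 724.5 bases, against 823 and 837 bases for members with 5 lists and 975 bases in either class for members with 6. A further 188 regions met the presence rule for even and lacZ but also had an odd peak, in all 3 odd lists in 91 cases. For odd and lacZ, 180 regions also had an even peak, in all 3 even lists in 101 cases.

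Both classes were small shares of the regions that recurred in a set. Peaks from at least 2 lists of a set were found in 95424 regions for even (26.7% of all regions), 91384 for odd (25.5%) and 45864 for lacZ (12.8%). Peaks from all 3 lists of a set were found in 19.3%, 16.3% and 6.71% of all regions. The lacZ-even regions amounted to 1.65% of the even regions and 3.43% of the lacZ regions. The lacZ-odd regions amounted to 1.63% of the odd regions and 3.26% of the lacZ regions. The odd-even regions amounted to 4.42% of the odd and 4.24% of the even regions.

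The strongest members were ranked by the percentile of fold enrichment within each list, averaged over the lists with a peak. Fold enrichment is the fragment pileup at the summit over the background, a value the authors gave for each peak in its own list, and no fold is set against that of another list, whose depth may differ. Positions are on hg19. The lacZ-even region that ranked first lay at chr20:13251821-13252760. Its fold was 78.5, 109 and 139 in even replicates 1, 2 and 3, and 81.2, 273 and 55.8 in lacZ replicates 1, 2 and 3. All 6 peaks covered nearly the same stretch there, and the median even and lacZ summits were 31 bases apart.

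The region ranked second, at chr1:34815066-34816714, was arranged differently. Its fold was 77.1, 107 and 99.3 in the even lists and 98.3, 251 and 56.4 in the lacZ lists. The even peaks filled its lower end and the lacZ peaks its upper end, with summits 643 bases apart, and neither summit lay inside the peaks of the other set. The same held for the third, at chr12:109056037-109057779, with summits 750 bases apart. Its fold was 85.4, 164 and 155 in the even lists and 65.1, 189.8 and 47.7 in the lacZ lists. It held as well for the fourth, at chr12:130761046-130762408, with summits 513 bases apart.

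The fifth lacZ-even region, at chr1:145002820-145003706, resembled the first, with summits 33 bases apart. Its fold was 74.2, 59.7 and 141 in the even lists and 70.9, 143 and 60.1 in the lacZ lists. The background below its summits stood 1.51 to 2.25 log2 units above the lowest of the same list, against at most 0.85 in the first region. The other lacZ-even regions among the first 10 lay at chr5:94538642-94539788, chr6:52500847-52502032, chr19:20055383-20056487, chr22:43381250-43382811 and chr7:114679030-114680602. Their summits were 219, 326, 275, 674 and 697 bases apart. Each of the 10 held peaks of all 6 lists, 2 had summits within 100 bases, and in 5 neither summit lay inside the peaks of the other set.

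Among the lacZ-odd regions, the first 10 also held peaks of all 6 lists, none had summits within 100 bases, and in 6 neither summit lay inside the peaks of the other set. The first, at chr2:101751518-101752952, had a fold of 45.3, 63.7 and 101 in odd replicates 1, 2 and 3, and 79.6, 160 and 55.7 in lacZ replicates 1, 2 and 3. Its summits were 341 bases apart. The second, at chr8:81833793-81835577, had a fold of 56.5, 182 and 109.8 in the odd lists and 54.8, 93 and 42 in the lacZ lists. Its odd and lacZ peaks met at their edges, with summits 876 bases apart.

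The third lacZ-odd region, at chr5:77230395-77232578, had a fold of 145, 136 and 193 in the odd lists and 55.9, 113 and 32 in the lacZ lists, with summits 615 bases apart. In the fourth, at chr6:96018300-96019779, the lacZ peaks were the higher in rank. Its fold was 32.4, 53.6 and 47.5 in the odd lists and 142, 379 and 89.6 in the lacZ lists, with summits 693 bases apart. The rest of the first 10 lay at chr12:32424975-32426439, chr5:13492517-13493947, chr3:105707143-105708376, chr19:47007392-47008619, chr9:5496134-5497234 and chr11:108315529-108317010, with summits 661, 615, 280, 255, 248 and 615 bases apart.

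Among lacZ-even members, peaks with coinciding summits had a median percentile of 60.0, 54.0 and 65.2 in the even lists, against 64.8, 63.5 and 72.1 where summits were farther apart. Among lacZ-odd members these were 52.1, 63.8 and 66.8 in the odd lists, against 57.9, 68.2 and 70.3. In the lacZ lists of lacZ-odd members the order was not the same in every list, with 61.1, 79.4 and 50.8 against 59.7, 78.6 and 51.8. In odd-even regions the odd lists had the opposite order, with 77.5, 73.1 and 73.8 against 57.0, 66.3 and 68.4. The even lists were mixed there, with 58.0, 60.1 and 66.4 against 60.9, 59.0 and 68.7. After the first 10, the highest lacZ-even regions with 6 lists and summits within 100 bases lay at chr6:70445430-70446333, rank 11, chr16:23595364-23596830, rank 35, and chr3:160489402-160490295, rank 37. The first of these had a fold of 152, 217 and 179 in the even lists and 35.9, 79.5 and 26.3 in the lacZ lists, with summits 11 bases apart. The highest such lacZ-odd regions lay at chr2:240565135-240566898, rank 11, chr11:94485783-94486592, rank 39, and chr5:74796570-74797416, rank 73. The first of these had a fold of 90.9, 206 and 150.3 in the odd lists and 33, 116 and 26 in the lacZ lists, with summits 10 bases apart. Its background was 19.9 times the lowest of the lists.

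**Figure D1:**
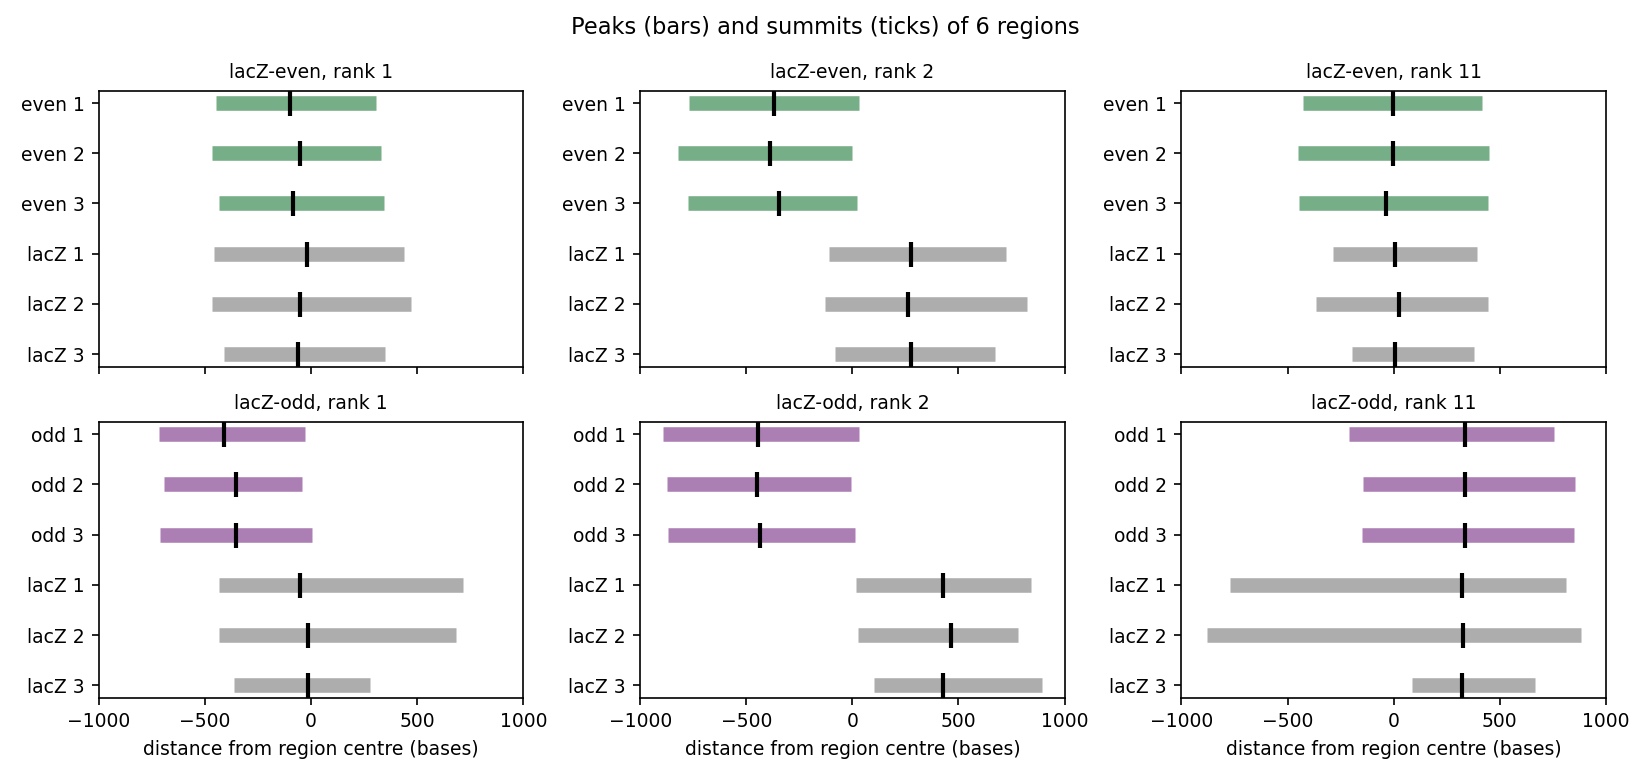
Extent (bars) and summit (ticks) of the strongest peak of each list in 6 regions, by distance from the centre of the region in bases: the regions ranked 1 and 2 of each class and the highest ranked one with coinciding summits outside the first 10 (rank 11 in each). In rank 2 of either class the lacZ peaks sit beside the even or odd peaks, with summits 643 and 876 bases apart, and in rank 11 the summits lie 11 and 10 bases apart.

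The place of the summits was not used by the rule, although a region needs peaks that meet, so the distance cannot pass the length of the region. Within a set the summits coincided and between sets they mostly did not. In lacZ-even regions, 97.6% to 98.4% of summits lay within 100 bases of each other in 2 even lists and 96.6% to 97.1% in 2 lacZ lists, against 17.1% to 19.5% in an even and a lacZ list. In lacZ-odd regions the share was 96.4% to 97.4% in 2 odd lists and 95.9% to 97.4% in 2 lacZ lists, against 17.9% to 19.8% in an odd and a lacZ list. The median distance was 23 to 30 bases within sets and 273 to 303 bases between sets.

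Between the median summits of the sets, the distance had a median of 272.5 bases in lacZ-even and 293 bases in lacZ-odd regions. It was at most 100 bases in 288 lacZ-even (18.3%) and 290 lacZ-odd regions (19.4%), at most 10 bases in 33 of each, and above 500 bases in 291 and 295. The even summit was at the higher coordinate in 836 lacZ-even regions and at the lower in 735. The odd summit was at the higher coordinate in 741 lacZ-odd regions and at the lower in 751, and in the remaining 2 it coincided with the lacZ summit.

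By geometry, each summit lay inside the peaks of the other set in 653 lacZ-even (41.6%) and 573 lacZ-odd regions (38.4%). Only one of them did in 356 (22.7%) and 362 (24.2%). In 562 (35.8%) and 559 (37.4%) neither did, and there the sets overlapped by a median of 118.5 and 114 bases out of a median length of 1079.5 and 1062 bases. Over all members the stretch shared by the sets had a median of 296 bases, 35.4% of the region, in lacZ-even and 284 bases, 32.8%, in lacZ-odd regions. Longer regions had summits farther apart, with Pearson's r = 0.75 across 1571 lacZ-even and 0.67 across 1494 lacZ-odd regions, a description across regions in which the length bounds the distance.

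The summits of the classes were compared by list. Of the even peaks in lacZ-even regions, 17.9%, 18.9% and 18.4% had a summit within 100 bases of the median lacZ summit in replicates 1, 2 and 3, against 19.4%, 19.8% and 18.98% of the odd peaks in lacZ-odd regions. The even lists lay below the odd lists without overlap, by 0.96 percentage points (18.4% ± 0.487 against 19.4% ± 0.394, SD, n = 3 each; two-sided exact permutation p = 0.1, and 3 against 3 can go no lower; adjusted p = 0.2 over 4 planned tests). The order turned round with a limit of 200 bases, where the difference was 1.34 points, and without the libraries numbered 2, where it was 0.56. The lists of a set were scored at largely the same regions, so the SD is a spread among libraries and not over regions.

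The members were also set beside the odd-even regions. In each of the 6 odd and even lists, the share of peaks with a summit within 100 bases of the other set's median summit was lower in lacZ-even or lacZ-odd regions than in odd-even regions. It was 18.9% ± 0.656 with lacZ as the other set and 31.7% ± 0.761 with the other SLEAR pool (SD, n = 6 lists), and the gap was 11.3 to 13.6 percentage points in single lists. The mean difference was −12.8 points (exact sign-flip permutation test over the 6 lists, two-sided, p = 0.0312, the smallest that 64 arrangements allow; adjusted p = 0.156 over the 4 planned tests and this one). It was lower in 6 of 6 lists, and −7.88 points with peaks merged up to 500 bases apart, but did not pass the threshold of 0.05 after adjustment, and without the libraries of any 1 replicate number the test could not reach it (−10.8 to −12.1 points, exact permutation p = 0.125). The data were known when this comparison was chosen. Its 6 values share regions, since the odd and even lists meet in the same odd-even regions. The lists of a set were also scored at largely the same regions, against the same median summit of the other set. Between even lists in lacZ-even regions, 97.6% to 98.4% of summits lay within 100 bases of each other. Between odd lists in lacZ-odd regions the share was 96.4% to 97.4%. The 6 lists are thus far from independent, which the SDs, the count of 6 of 6 and the sign-flip p-value do not allow for. Median region lengths were 898 and 887 bases in lacZ-even and lacZ-odd regions and 873.5 bases in odd-even regions. Peaks of all 6 lists were held by 47.1%, 42.4% and 57.7% of these regions. The part of region length, or of the number of lists with a peak, in the gap was not tested. Neither summit lay inside the other set's peaks in 27.1% of the odd-even regions.

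**Figure D2:**
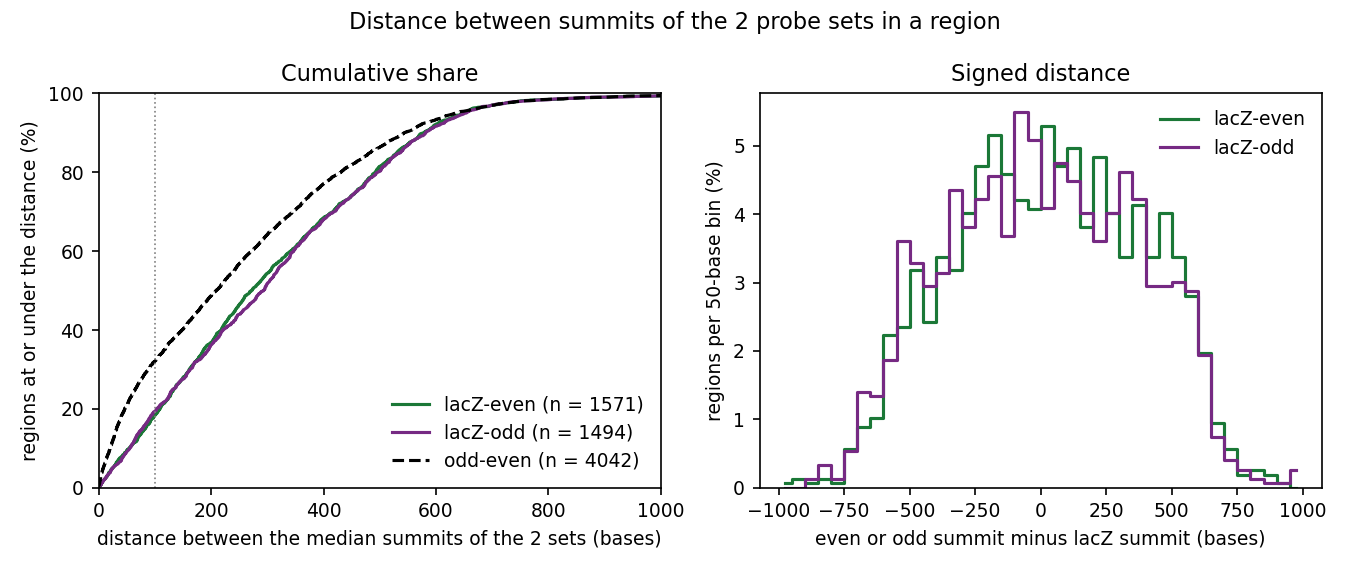
Distance between the median summits of the 2 probe sets of a region. Left, the cumulative share of regions (%) by absolute distance in bases, with the 100-base limit dotted; right, the share of regions (%) per 50-base bin of even or odd minus lacZ summit. The lacZ-even and lacZ-odd curves run together, at 18.3% and 19.4% by 100 bases, under the odd-even curve at 32.1%, and the signed distances spread broadly around 0.

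Member peaks ranged over most of their own lists in strength. Members with 6 lists ranked higher than those with 5, with a median of the mean percentile of 68.6 and 56.6 in lacZ-even and 66.6 and 58.0 in lacZ-odd regions. In lacZ-even regions the median percentile of fold was 64, 61.8 and 70.8 in even replicates 1, 2 and 3, and 58.8, 78.9 and 53.9 in lacZ replicates 1, 2 and 3. In lacZ-odd regions it was 56.6, 67.4 and 69.7 in the odd lists and 59.9, 78.7 and 51.2 in the lacZ lists. The highest of the 6 medians fell in lacZ replicate 2 in either class, the longest lacZ list, and the lowest in lacZ replicate 3, the shortest.

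The share of member peaks in the top 10% of their list by fold was 14.5%, 14.2% and 17.6% in the even lists and 14.6%, 24.9% and 11.8% in the lacZ lists for lacZ-even regions. For lacZ-odd regions it was 11.9%, 16.7% and 18.6% in the odd lists and 12.7%, 24.6% and 9.87% in the lacZ lists. Peaks strong with both sets were few in either class and among odd-even regions. In 20 of 1571 lacZ-even, 15 of 1494 lacZ-odd and 71 of 4042 odd-even regions the mean percentile was above 90 in each set. It was under 50 in each set in 177, 181 and 522 of them. Across regions, the mean percentile of the SLEAR pool and that of lacZ had a Spearman's rho of −0.08 in lacZ-even (n = 1571) and −0.12 in lacZ-odd regions (n = 1494), and −0.20 for odd and even in the 4042 odd-even regions. The rule admits a region only where enough lists have a peak, which bears on these values.

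Member peaks were longer than the peaks of their list in each of the 12 comparisons. The median was 519, 480 and 523 bases in the even lists at lacZ-even regions, against 409, 400 and 366 bases over all peaks of those lists. In the odd lists at lacZ-odd regions it was 454, 480.5 and 503.5 bases, against 394, 362 and 348 bases. In the lacZ lists it was 490, 584 and 466.5 bases at lacZ-even and 500, 595 and 465 bases at lacZ-odd regions, against 420, 369 and 450 bases. The same held at odd-even regions, with medians of 518, 488 and 526.5 bases in the even lists and 490, 502 and 512 bases in the odd lists. A longer peak also meets others more readily, and the part of length in membership was not tested.

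**Figure D3:**
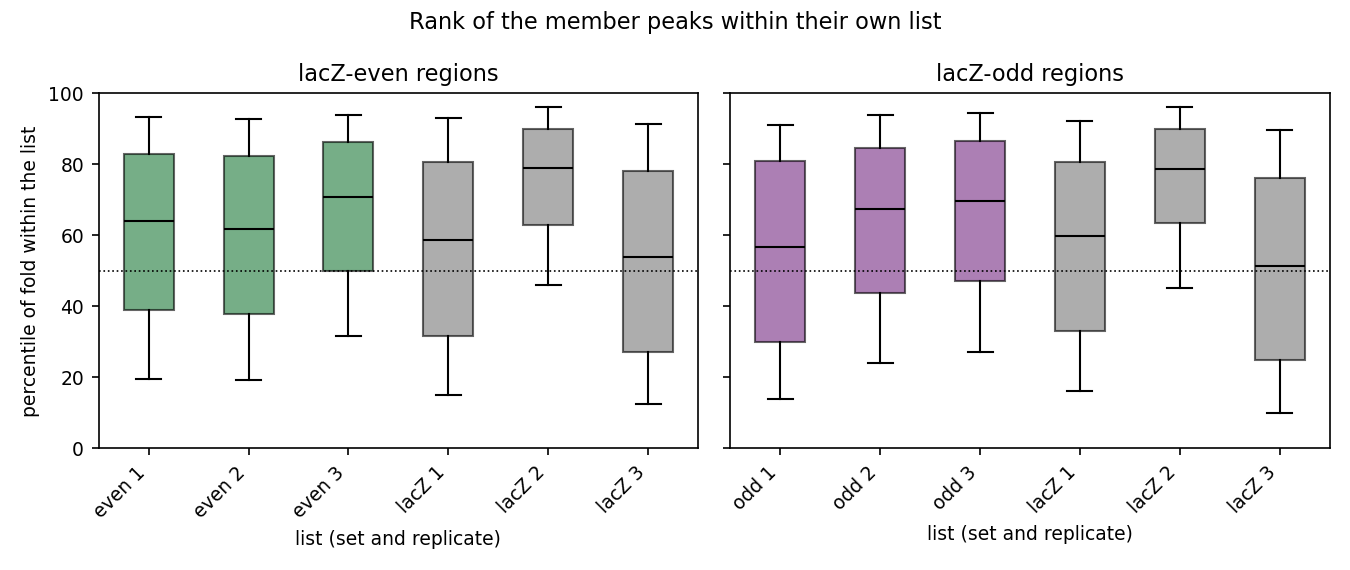
Percentile of fold enrichment within its own list (0 to 100) of the strongest peak of each list in lacZ-even (left) and lacZ-odd regions (right). Boxes span the quartiles with the median, whiskers the 10th to 90th percentile, and the dotted line marks 50; lacZ replicate 2 has the highest median in either class, at 78.9 and 78.7.

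The local background that pileup and fold imply enters the p-value by which a peak is called, so it is not independent of how the members were chosen and is given as a description. It is the coverage the peak caller set against a summit, given here over the lowest value of the same list. Where summits of 2 lists in a member lay within 20 bases, the background differed least between lists of the same replicate number. The median absolute difference was 0.0078 to 0.054 log2 units in the 6 pairs of an even or odd and a lacZ list with the same number, with 39 to 66 regions each. It was 0.17 to 0.33 in the 12 such pairs with different numbers, and 0.22 to 0.33 in the 9 pairs of lists of one set. The sources used here do not name the control library.

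Relative to the median over all peaks of the same list, the median background at lacZ-even regions was 0.017, 0.14 and 0.030 log2 units higher in the even lists and 0.13, 0.21 and 0.23 in the lacZ lists. At lacZ-odd regions it was 0.0 in odd replicates 1 and 3 and 0.053 in replicate 2, against 0.13, 0.26 and 0.23 in the lacZ lists. The even and the odd lists thus lay below the lacZ lists, by a mean difference of −0.13 and −0.19, except that even replicate 2 was level with lacZ replicate 1. That order turned round over the lowest background of the same list. On this scale lacZ-even regions stood at 0.43, 0.45 and 0.36 log2 units in the even lists and 0.36, 0.39 and 0.34 in the lacZ lists, a mean difference of 0.052. The lacZ-odd regions stood at 0.37, 0.49 and 0.36 in the odd lists and 0.36, 0.45 and 0.34 in the lacZ lists, a mean difference of 0.024. No order between the SLEAR pools and lacZ could therefore be given, nor between even and odd lists, whose difference was 0.044, or −0.010 with means in place of medians.

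A background of at least 2 times the lowest was found at 245 lacZ-even (15.6%) and 244 lacZ-odd regions (16.3%), against 16.0% of all regions, 16.7% of recurrent even, 18.1% of recurrent odd and 12.7% of recurrent lacZ regions. Among odd-even regions it was more frequent, at 866 regions (21.4%). By summit distance, the share was 18.8% of lacZ-even members within 100 bases and 14.9% of those farther apart, and 16.2% and 16.4% of lacZ-odd members. A background of 8 times the lowest was reached by 1 lacZ-even region, at chr18:18518868-18520000 with a background of 314 times the lowest, and 10 lacZ-odd regions (0.669%), against 0.0710% of all regions. The highest lacZ-odd background, 549 times the lowest, was at chr16:46392802-46393898, with summits 89 bases apart. A pair lay at chr1:161415843-161416900 and chr1:161438001-161439115, with 10.2 and 9.84 times the lowest and summits 511 and 544.5 bases apart. Of the other 7, 1 was the region on chromosome 2 at rank 11 named above and 6 lay together on chromosome 8.

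That stretch of chromosome 8, from 86.5 to 86.9 Mb, was picked after its values had been seen. It held 15 lacZ-odd regions among its 66 merged regions, where the share over all regions is 0.417%. The first of the 15 began at position 86558390 and the last ended at 86831852. All 15 held peaks of the 3 lacZ lists and of 2 or 3 odd lists, and 7 held peaks of all 6. No lacZ-even or odd-even region was among the 66 merged regions there, a number too small to read from shares of 0.439% and 1.13% over all regions. The members resembled each other closely. Their lengths ran from 799 to 1268 bases, and the distance between odd and lacZ summits from 277.5 to 347 bases, with a median of 335. In 11 the odd summit was at the higher coordinate, and in the 4 neighbours from chr8:86735386-86736653 to chr8:86744799-86745918 at the lower. Neighbouring members began as close as 3.08 kb apart, with a median of 12.1 kb.

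The median background over the lists with a peak was 5.36 to 9.54 times the lowest at these 15 regions, and 4.60 to 10.7 times at single summits. The strength of their peaks differed between lists, with a median percentile of fold of 12.3, 36.4 and 47.9 in odd replicates 1, 2 and 3 and 61.5, 85.6 and 53.5 in lacZ replicates 1, 2 and 3. Fold ranged from 4.03 to 6.59 in odd replicate 1, which had a peak in 7 of them, from 5.11 to 14.4 in odd replicate 2 and from 6.89 to 14.0 in odd replicate 3. In lacZ replicates 1, 2 and 3 it ranged from 7.49 to 17.4, from 28.6 to 53.9 and from 7.19 to 18.3. Of the 54 merged regions in the stretch with at least 4 times the lowest background, 18 had a peak in at least 2 odd lists, 24 in at least 2 lacZ lists, and 15 in both. A further 11 had a peak in all 3 even lists, and no region there with at least 2 even lists had an odd or lacZ peak. Even peaks of at least 2 lists thus lay along the same stretch in merged regions without an odd or lacZ peak. Peaks of single even lists could lie closer, as with summits of even replicate 1 at 289.21 kb and lacZ replicate 2 at 289.03 kb from the start of the stretch. The part of the raised background in the peaks of the stretch was not tested. Counted without the stretch, 1479 lacZ-odd regions remained.

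**Figure D4:**
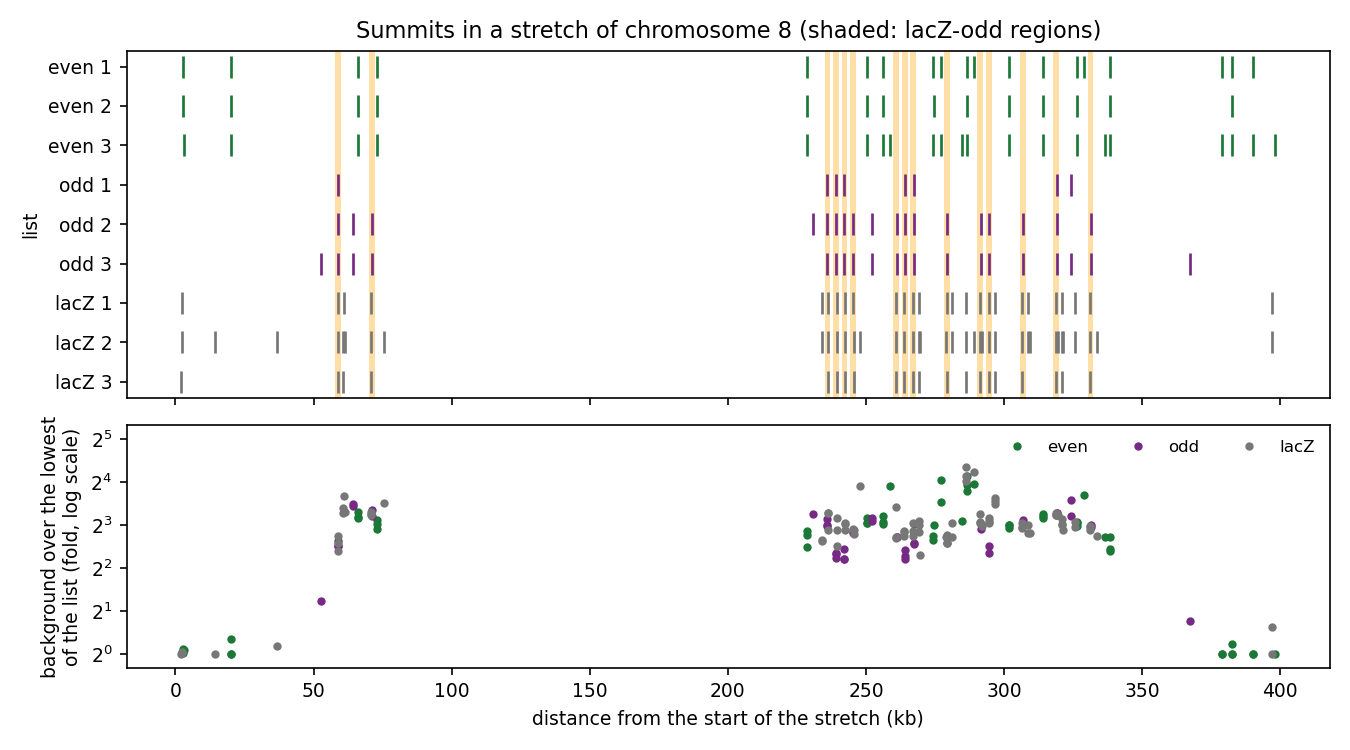
Summits in the 9 lists along 400 kb of chromosome 8, by distance from the start of the stretch in kb (top; lacZ-odd regions shaded), and background over the lowest of the list on a log scale (bottom). Odd and lacZ summits meet in 15 regions while even summits recur between them, and single summits in these regions have a background of 4.60 to 10.7 times the lowest.

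Spacing is given over all members, the stretch of chromosome 8 included. Distances between members were not compared with those of other regions. Around a lacZ-even or lacZ-odd region, a median of 14 other merged regions lay within 50 kb, against 13 around all regions. The nearest other lacZ-even region was a median of 605 kb from a lacZ-even region, and the nearest other lacZ-odd region 612 kb from a lacZ-odd region. From lacZ-even regions the nearest lacZ-odd region was at 536 kb. Members of a class within 100 kb of each other formed 84 pairs and 4 groups of 3 among lacZ-even regions, and 81 pairs, 4 groups of 3 and 1 group of 13, on chromosome 8, among lacZ-odd regions.

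By chromosome, members were compared with the lacZ regions of at least 2 lists on the same chromosome. The share was lowest on chromosome X in either class, with 20 lacZ-even regions, 1.54% of the recurrent lacZ regions, and 26 lacZ-odd regions, 2.0%. It was highest on chromosome 16 for lacZ-even regions, at 4.48%, and on chromosome 17 for lacZ-odd regions, at 4.26%. On chromosomes 4, 13 and 18 together it was 2.99% for lacZ-even and 2.64% for lacZ-odd regions, and on 17, 19 and 22 together 4.04% and 3.87%. On chromosome 20 it was 4.21% and 3.88%. The odd-even regions, as a share of recurrent even regions, were also lowest on chromosome X, at 2.88%, and stood at 5.97% on chromosome 20. Their share was 3.56% on chromosomes 4, 13 and 18 together and 4.68% on 17, 19 and 22 together.

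The classes parted most on chromosome 8, with 63 lacZ-even regions, 2.59% of the recurrent lacZ regions, and 97 lacZ-odd regions, 3.99%. That place rested on the stretch of 15, without which the lacZ-odd share was 3.41%, a smaller gap than on chromosomes 13 and 3. On chromosome 13 the share was 3.61% for lacZ-even and 2.52% for lacZ-odd regions, and on chromosome 3 it was 3.62% and 2.64%. These counts come from single regions of the same libraries and were not tested. Between 28 and 34 Mb of chromosome 6, the window around the major histocompatibility complex, lay 890 merged regions. Of these 6 were lacZ-even (0.674%, against 0.439% of all regions) and 5 lacZ-odd (0.562%, against 0.417%), and the differences were not tested.

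Within 1 Mb of the region that ranked highest over the odd and even lists, at chr8:102086950-102088916, lay 307 other merged regions. Of these 3 (0.977%) were lacZ-even, against 0.439% of all regions, and 0 were lacZ-odd, against 0.417%, and nothing is read from counts this small. The first, at chr8:101160356-101161161, had a fold of 14.9, 10.5 and 21.2 in the even lists and 7.19 and 22.3 in lacZ replicates 1 and 2, with summits 220.5 bases apart. The second, at chr8:101377584-101378755, had 38.7, 26.3 and 33.9 in the even lists and 7.90 and 28.4 in lacZ replicates 1 and 2, with summits 524 bases apart. The third, at chr8:102937333-102938226, had 8.57, 11 and 15.4 in the even lists and 24.0, 39.0 and 10.6 in the lacZ lists, with summits 410 bases apart. They ranked 960, 333 and 884 of the 1571 lacZ-even regions.

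**Figure D5:**
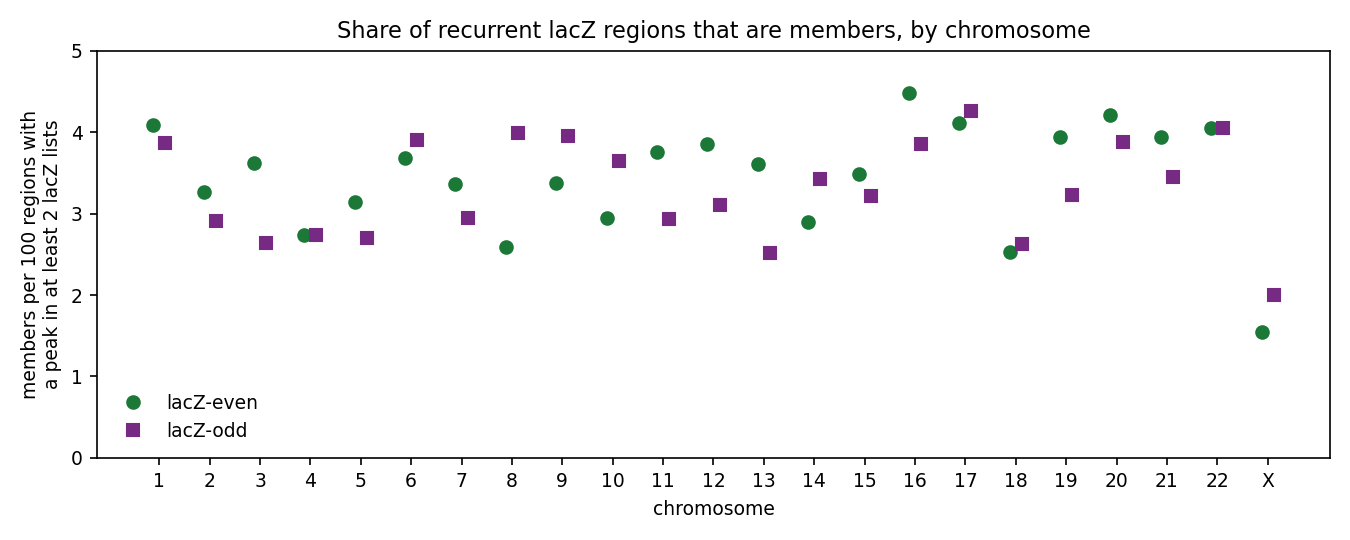
lacZ-even (circles) and lacZ-odd regions (squares) as a share of the regions with a peak in at least 2 lacZ lists, in members per 100 such regions, by chromosome. Chromosome X is lowest in either class, at 1.54 and 2.0, and the classes part most on chromosome 8, at 2.59 and 3.99, where lacZ-odd is at 3.41 without the stretch of 15.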

How the data were processed

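Per the submitters' processing notes, FastQC and Bowtie2 were used and the genome build was hg19. Their versions, the peak caller and its control library are not stated in the sources used here. Each of the 9 deposited lists holds one library, and the column names are those of MACS2 output. Each peak, per the file headers, has a summit, a length, a pileup (the fragment coverage, or signal, at the summit), a fold enrichment (a ratio to the local background), and −log10 p-values and −log10 q-values. The lowest deposited −log10 q was 1.304 in any list. These values were used as the authors gave them, and folds were turned into percentiles within a list.

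Across lists, peaks on chromosomes 1 to 22 and X were joined where they shared 1 base or more. The background was computed as (pileup + 1) divided by fold, less 1; with it, the Poisson tail differed from the deposited −log10 p-value by a median of at most 6.4e-06 in a list. The members and lists were chosen with earlier results of these data known. The regions named are the first 10 of each class by mean percentile, the first 3 after them with peaks in all 6 lists and summits within 100 bases, and those within 1 Mb of the strongest odd and even region. Others were picked after their values had been seen. Summits were compared between libraries with exact permutation tests, two-sided, and Benjamini-Hochberg adjustment, after a check on simulated data. The adjustment counts 3 planned tests of the background, whose p-values are not used since the background bears on which peaks are called. The labels number the replicates 1 to 3 in each group. At members with a peak in all 6 lists and median summits within 100 bases, deviations of the background from the mean of its set correlated between same-numbered libraries, with r of 0.913, 0.847 and 0.881 in lacZ-even (122 regions) and 0.874, 0.820 and 0.828 in lacZ-odd regions (112), so the numbers pair the libraries for this measure. Python 3.11.15, numpy 2.4.6, pandas 2.3.3, scipy 1.17.1 and matplotlib 3.10.9 were used. Reads per library are unknown, and the input libraries were not analysed here.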

Additional observations from a re-analysis of the deposited data

How the results depend on the processing

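The counts of lacZ-even and lacZ-odd regions depended strongly on the rule. With a peak required in all 6 lists they were 740 and 634, and with 4 of 6 they were 3295 and 3024. Merging peaks up to 500 bases apart gave 2718 and 2457, and counting a list only where its peaks cover 50% of the region gave 354 and 304. The top of each list by fold (the upper 50%) gave 525 and 457, lists cut to the 26540 strongest peaks 337 and 324, and summits within 100 bases 288 and 290. A −log10 q of at least 10 left 1064 lacZ-even and 991 lacZ-odd regions. With a single library of the 2 sets of a class left out, 4 of the 5 remaining lists were required. With a replicate number left out, 3 of the 4 remaining lists were required. Over the settings with single libraries or replicate numbers left out, the counts ran from 1517 to 3131 and from 1433 to 3235. The part of the changed requirement in this range was not tested. Within 1.5 times the main count were 11 of 22 settings for lacZ-even and 10 of 22 for lacZ-odd regions.

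The even minus odd difference in close summits was 1.34 points at 200 bases (exact permutation p = 0.1) and ran from −1.76 to 0.56 with replicates left out; the cause was not tested. The even minus odd background was −0.010 with means, where the even minus lacZ and odd minus lacZ backgrounds shrank to −0.024 and −0.054. Over the lowest background of the list the last pair turned round, to 0.052 and 0.024. Between members and odd-even regions, the difference was −7.88 points with peaks merged up to 500 bases apart. Without the libraries of a replicate number it ran from −12.1 to −10.8 points, with an exact permutation p of 0.125, the smallest for 4 lists, and it was −10.4 without lacZ replicate 3. That comparison and its alternatives, those without lacZ replicate 3 and those over the lowest background were chosen after seeing the data. With the replicate number as a block, the even minus odd difference in close summits was −0.96 points (exact permutation p = 0.25, the smallest for 3 pairs). Neither this test nor the one of 3 against 3 lists could reach 0.05, so the block could change no call. The background differences stayed at 0.04, −0.13 and −0.19 log2 units and are given without a test. Groups of 3 are too small for a check of outlying libraries. Unknown depth limits every list: a missing peak is a peak that was not called, not a site shown to be free of signal.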
